A study of Mus musculus with 2 samples.

Results

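The 69 genes described here carry the symbols of the cytoplasmic translation initiation factors (Eif1 to Eif6) and elongation factors (Eef1 and Eef2). Among them are the kinases, binding proteins and methyltransferases that share these symbols. The 69 genes were found by symbol, after Ensembl identifiers had been paired with GRCm38 gene names, among 32285 gene rows. By role they were 46 initiation factors, 7 elongation factors, 14 regulators and 2 other genes. The 2 others carry a matching symbol without being factors by name: Eif1ad, named for an eIF1A-like domain, and Eif2c5, an older name from the Argonaute series. The Eif2c5 row is annotated as a long noncoding RNA. No row carried a pseudogene suffix.

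Single-nucleus RNA sequencing (snRNA-seq) had been performed on the ipsilateral thalamus of female C57BL/6J mice, 3 months old, on day 21 after a sham operation or a cortical ablation injury, in which primary sensory and motor cortex is removed surgically. The comparison asks how gene expression in thalamic cells differs once the overlying cortex has been lost. Nuclei from 4 mice per group were pooled before library preparation, so each group was 1 library (n = 1). No difference between the libraries had a replicate check, and every interval below covers counting error only.

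Translation of an mRNA begins when the eIF4 factors bind its cap and unwind its leader, while eIF2 brings the initiator tRNA to a small ribosomal subunit held by eIF1, eIF1A, eIF3 and eIF5. Elongation then runs on eEF1, which delivers aminoacyl-tRNAs, and eEF2, which moves the ribosome along. Cells slow initiation through the Eif2ak kinases, which phosphorylate eIF2, and through the 4E-binding proteins (Eif4ebp), which hold eIF4E away from eIF4G, and they slow elongation through the eEF2 kinase. In neurons these switches are known for tying protein synthesis to activity, nutrients and stress.

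The libraries held 16390 sham and 21828 injury barcodes, with 137850696 and 180106314 unique molecular identifiers (UMIs), and 101 barcode sequences occurred in both. The filter on nuclei left 16373 and 21777 of them. UMIs were summed per library over 16 glutamatergic clusters (10831 sham and 11268 injury nuclei) and 2 GABAergic clusters (2025 and 3364 nuclei). Clusters are called by their leading genes. The glutamatergic class left out 4 clusters and the GABAergic class 1. Either another class had a marker among the leading genes, or a library had fewer than 50 nuclei. The latter clusters came almost only from the injury library: Ano2/Myo5b (3 sham and 435 injury nuclei), Neurod6/Ccbe1 (0 and 282) and Dsp/Stra6 (0 and 220). The reason was not tested. Markers of glia moved with the groups in neurons: the summed level of Mbp, Mobp, Slc1a2 and Slc1a3 was 303 sham and 313 injury CPM (UMIs per 1000000 UMIs) in glutamatergic and 100.2 and 134 in GABAergic neurons, where 3 of 4 and 4 of 4 of them were higher in the injury library. Mitochondrial transcripts had a median log2 ratio of 0.34 over 13 genes in glutamatergic and 0.20 over 12 in GABAergic neurons, and their summed level was 199 sham and 208 injury CPM and 245 and 262 CPM. The activity gene Fos stood at 5.49 sham and 1.19 injury CPM in glutamatergic neurons. The part of these shifts in the results below was not tested. Fewer nuclei of a subtype within a class and less RNA per nucleus cannot be told apart in a class sum.

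In total, 64 of the 69 genes had at least 50 UMIs over both libraries in both neuron classes. Eif4ebp1 had so many in glutamatergic neurons alone, with 45 sham and 56 injury UMIs. The 4 genes below this limit in both classes were Eif4e1b, Eif3j2, Eif2c5 and Eif2s3y. The last is the Y-linked copy of an eIF2 subunit and gave 6 sham and 5 injury UMIs in glutamatergic neurons, while its X-linked partner Eif2s3x gave 1889 and 2063, as the label of female mice implies.

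Levels are given as CPM, scaled to the UMIs of the class, and a difference as the log2 ratio of injury over sham with its 95% counting interval. A gene was counted as lower or higher at a log2 ratio of 0.25 in size, the fold used by the study. The study also required a significant adjusted P in neuronal clusters, whereas here only the fold was applied, to summed counts. In glutamatergic neurons the median log2 ratio was -0.02 over 43 initiation factors, -0.02 over 7 elongation factors and 0.01 over 14 regulators, beside 0.01 over all 19223 genes tested. Of the 65 translation factor genes tested there, 8 were lower and 2 higher, against 12.3% of all genes lower and 14.8% higher. In GABAergic neurons the medians were -0.07, -0.09 and -0.03, beside 0.01 over all 15420 genes, and 7 of 64 genes were lower and 5 higher, against 12.8% and 16.7% of all genes. The share of lower genes was thus near the background in both classes. The ribosomal protein genes, which make up the machine that these factors serve, had a median of -0.41 in each class, and 68 of 82 and 66 of 81 of them were lower.

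**Figure D1:**
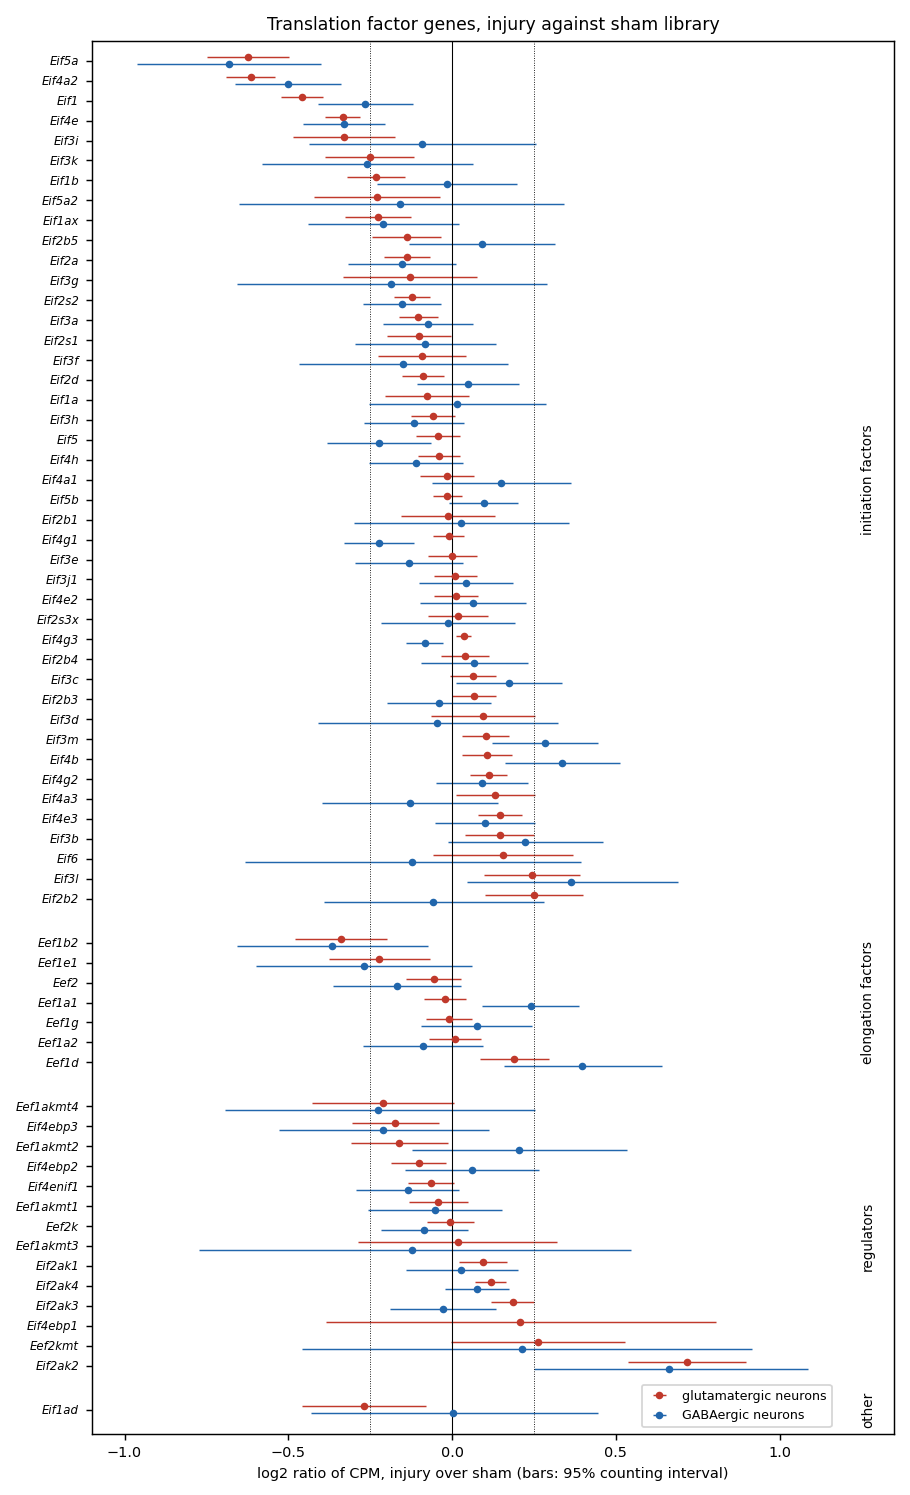
Log2 ratio of CPM, injury over sham, for each translation factor gene with at least 50 UMIs in the class, with 95% counting intervals, in glutamatergic (red) and GABAergic (blue) neurons. Dotted lines mark a log2 ratio of 0.25 in size. Most points lie between the lines, with Eif5a, Eif4a2, Eif1 and Eif4e to the left and Eif2ak2 to the right in both classes.

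Summed over each group, initiation factors came to 1418 sham and 1373 injury CPM in glutamatergic neurons and to 1538 and 1476 in GABAergic neurons. Elongation factors came to 149 and 147 in glutamatergic neurons. In GABAergic neurons their sum was 161 in the sham library and 166 in that of the injury, although their median log2 ratio was below 0. Eef1d, counted as higher, and Eef1a1, at 0.24 just under the limit, had the largest ratios of the group there. Regulators came to 267 and 277 in glutamatergic neurons and to 332 and 333 in GABAergic neurons. The sums of the 3 groups therefore stayed within a few percent, but parts of a group could differ more. The genes of eIF1, eIF1A, eIF5, eIF5A, eIF5B and eIF6 summed to 232 sham and 206 injury CPM in glutamatergic neurons. In GABAergic neurons they summed to 243 and 226.

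The initiation factors were led downward by Eif5a. It encodes eIF5A, the hypusinated factor that is named for initiation but also helps the ribosome through difficult stretches and termination. Eif5a (ENSMUSG00000078812, chr11:69916714-69921958, minus strand, GRCm38) stood at 13.0 CPM in the sham library and 8.43 in that of the injury in glutamatergic neurons, from 1270 and 889 UMIs, for a log2 ratio of -0.62 (-0.75 to -0.50). In GABAergic neurons Eif5a stood at 14.7 and 9.16, from 209 and 217 UMIs, for a log2 ratio of -0.68 (-0.96 to -0.40). The injury value was the lower one in both classes, and 0.913% of the 15773 glutamatergic genes with at least 200 UMIs had a lower ratio. Its close paralog Eif5a2 had a log2 ratio of -0.23 (-0.42 to -0.04) in glutamatergic and -0.16 (-0.65 to 0.34) in GABAergic neurons.

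Eif4a2, which encodes the eIF4A form that is prominent in brain and unwinds mRNA leaders within the cap-binding complex, came next. Eif4a2 (ENSMUSG00000022884, chr16:23107444-23114136, plus strand) had 36.4 sham and 23.8 injury CPM in glutamatergic neurons, a log2 ratio of -0.61 (-0.69 to -0.54). It had 40.7 and 28.7 in GABAergic neurons, a log2 ratio of -0.50 (-0.66 to -0.34). The gene overlaps 7 others in the annotation, mostly small RNAs on its own strand and Rfc4, and whether counting used the strand is not given in the sources used here. The paralog Eif4a1 differed less, with 23.7 and 23.4 CPM in glutamatergic neurons (log2 ratio -0.02, -0.10 to 0.07) and 20.02 and 22.2 in GABAergic neurons (0.15, -0.06 to 0.36). Eif4a3, a helicase of the exon junction complex rather than of initiation, was counted with the initiation factors by symbol. It had log2 ratios of 0.13 (0.01 to 0.25) and -0.13 (-0.40 to 0.14).

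The cap-binding protein gene Eif4e had 60.6 sham and 48.0 injury CPM in glutamatergic neurons, a log2 ratio of -0.33 (-0.39 to -0.28). In GABAergic neurons Eif4e had 64.3 and 51.1, a log2 ratio of -0.33 (-0.46 to -0.21). Its relatives were not lower: Eif4e2 had log2 ratios of 0.01 and 0.06, and Eif4e3, an atypical cap-binding form, had 0.14 (0.08 to 0.21) and 0.10 (-0.05 to 0.25). The scaffold genes were close to 0 in glutamatergic neurons, with -0.01 for Eif4g1 and 0.04 for Eif4g3. In GABAergic neurons Eif4g1 had 83.5 sham and 71.6 injury CPM, a log2 ratio of -0.22 (-0.33 to -0.12). Eif4b, the partner that stimulates the helicase, was higher in GABAergic neurons, with 27.6 and 34.9 CPM and a log2 ratio of 0.34 (0.16 to 0.51), while in glutamatergic neurons it was 0.11 (0.03 to 0.18). Over the 11 eIF4 genes tested the median was 0.01 in glutamatergic and -0.08 in GABAergic neurons.

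Among the genes of eIF1 and eIF1A, Eif1, which guards start codon choice, was the lowest in both classes. Eif1 (ENSMUSG00000035530, chr11:100319885-100322096, plus strand) had 45.6 sham and 33.2 injury CPM in glutamatergic neurons, a log2 ratio of -0.46 (-0.52 to -0.39). In GABAergic neurons it had 47.8 and 39.8, a log2 ratio of -0.26 (-0.41 to -0.12). Its paralog Eif1b had -0.23 (-0.32 to -0.14) and -0.02 (-0.23 to 0.20). For eIF1A, Eif1ax had log2 ratios of -0.23 (-0.33 to -0.13) and -0.21 (-0.44 to 0.02), and Eif1a had -0.08 and 0.01. Taken as a group, the genes of eIF1, eIF1A, eIF5, eIF5A, eIF5B and eIF6 had a median of -0.23 in glutamatergic neurons, with 8 of 9 below 0, and of -0.16 in GABAergic neurons, with 7 of 9 below 0, against 47.5% and 48.3% of all genes below 0. The values of the group include those of Eif5a and Eif1 given above. Of the group, Eif1, Eif1b, Eif5a, Eif5 and Eif6 span under 10 kb. All genes of that length had a median of -0.10 in glutamatergic and -0.05 in GABAergic neurons. The part of gene length in the group medians was not tested. Eif6, which keeps the large subunit apart, was the member above 0 in glutamatergic neurons at 0.16 (-0.06 to 0.37). Eif5, the activator of eIF2's GTPase, had -0.04 (-0.11 to 0.02) and -0.22 (-0.38 to -0.06).

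The 13 eIF3 genes tested, whose products scaffold the small subunit, had a median of 0.00 in glutamatergic and -0.07 in GABAergic neurons. Eif3i had 7.57 sham and 6.02 injury CPM in glutamatergic neurons, a log2 ratio of -0.33 (-0.48 to -0.17), and -0.09 (-0.44 to 0.26) in GABAergic neurons. Eif3k had -0.25 (-0.39 to -0.12) and -0.26 (-0.58 to 0.06). Other subunits leaned upward: Eif3l had 0.24 (0.10 to 0.39) and 0.36 (0.05 to 0.69), and Eif3m had 0.10 (0.03 to 0.17) and 0.28 (0.12 to 0.45), the last at 0.16 and no longer counted with clusters weighted equally. The 3 eIF2 genes tested had medians of -0.10 and -0.08, with 2 and 3 of them below 0, and summed to 92.8 sham and 87.3 injury CPM and to 110.2 and 102.0 CPM. The 5 genes of eIF2B, the exchange factor that recharges eIF2 and is the point where eIF2 phosphorylation acts, had medians of 0.04 and 0.02. Within eIF2B, Eif2b2 had the highest glutamatergic value of any initiation factor, 6.66 sham and 7.92 injury CPM, a log2 ratio of 0.25 (0.10 to 0.40) that lay at the limit and was not counted once the prior of 0.5 UMI was added, but in GABAergic neurons it had -0.06 (-0.39 to 0.28).

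The elongation factors split within the eEF1 complex. Eef1b2, a nucleotide exchange subunit that reloads eEF1A with GTP, had 9.16 sham and 7.24 injury CPM in glutamatergic neurons, a log2 ratio of -0.34 (-0.48 to -0.20). In GABAergic neurons Eef1b2 had 12.3 and 9.54, a log2 ratio of -0.37 (-0.66 to -0.07). Eef1d, the other exchange subunit, went the opposite way in both classes. It had 13.3 and 15.2 CPM in glutamatergic neurons, a log2 ratio of 0.19 (0.08 to 0.30), and 14.6 and 19.2 in GABAergic neurons, a log2 ratio of 0.40 (0.16 to 0.64). Eef1g, the structural subunit, was near 0 at -0.01 (-0.08 to 0.06) and 0.07 (-0.09 to 0.25).

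Of the tRNA carriers themselves, Eef1a1 had 39.3 sham and 38.7 injury CPM in glutamatergic neurons, a log2 ratio of -0.02 (-0.09 to 0.04). In GABAergic neurons Eef1a1 had 39.8 and 47.0, a log2 ratio of 0.24 (0.09 to 0.39). Eef1a2, its paralog of neurons and muscle, had 25.7 and 25.9 CPM in glutamatergic and 28.2 and 26.6 in GABAergic neurons, for log2 ratios of 0.01 (-0.07 to 0.09) and -0.09 (-0.27 to 0.10). The translocase gene Eef2 had -0.06 (-0.14 to 0.03) and -0.17 (-0.36 to 0.03). Eef1e1 belongs to the tRNA synthetase complex rather than to eEF1 but was counted, by symbol, in all medians of the elongation factors. It had -0.22 (-0.38 to -0.07) and -0.27 (-0.60 to 0.06). Processed copies of such abundant genes can share reads with them, and how these were counted is not given in the sources used here.

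Among the regulators, Eif2ak2 stood apart. It encodes PKR, the eIF2 kinase that is switched on by double-stranded RNA and whose gene is induced by interferon. Eif2ak2 (ENSMUSG00000024079, chr17:78852564-78882573, minus strand) had 394 sham and 698 injury UMIs in glutamatergic neurons, which is 4.03 and 6.62 CPM, a 1.64-fold higher level in the injury library and a log2 ratio of 0.72 (0.54 to 0.90). In GABAergic neurons it had 68 and 179 UMIs, which is 4.78 and 7.56 CPM, a log2 ratio of 0.66 (0.25 to 1.09). Among genes with at least 200 UMIs, 0.824% had a higher ratio in glutamatergic and 1.02% in GABAergic neurons. Glia held the transcript too, at 33.1 sham and 51.8 injury CPM in astrocytes (15 and 75 UMIs) and 1.76 and 6.35 in oligodendrocytes (3 and 27 UMIs), and the part of glial RNA in the neuronal values was not tested.

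The other 3 eIF2 kinases differed less. Eif2ak3, which encodes PERK, the sensor of the endoplasmic reticulum, had 34.6 and 39.3 CPM in glutamatergic neurons, a log2 ratio of 0.19 (0.12 to 0.25), and -0.03 (-0.19 to 0.13) in GABAergic neurons. Eif2ak4, which encodes the amino acid sensor GCN2, had 0.12 (0.07 to 0.17) and 0.08 (-0.02 to 0.17). Eif2ak1, which encodes the heme-regulated kinase, had 0.09 (0.02 to 0.17) and 0.03 (-0.14 to 0.20). Whether the difference of Eif2ak3 between the classes exceeds the spread between animals cannot be tested with 1 library per group.

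Because Eif2ak2 is a known interferon-responsive gene, the start regions of the translation factor genes were searched on both strands for 2 copies of GAAA set 2 bases apart, the core of the interferon-stimulated response element. RefSeq start windows of 300 bases on GRCm38.p6 (250 before and 50 after the start) were available for 53 of the genes. These genes had 68 windows, of which 4 (5.88%), from 4 genes, held the motif, against 3.44% of all 32851 windows. Each match is shown with 10 bases on either side, in the direction of the gene, with the match in capitals; in Eif2s3x and Eif3a the match lies on the opposite strand and so reads as its reverse complement.
Eif2ak2, chr17:78882535-78882564, minus strand: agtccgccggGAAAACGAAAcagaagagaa
Eif2s1, chr12:78861850-78861879, plus strand: cctggagcaaGAAACAGAAActtacctctc
Eif2s3x, chrX:94212636-94212665, minus strand: tgccgagcatTTTCCTTTTCtctccgagca
Eif3a, chr19:60790885-60790914, minus strand: agaccgcaaaTTTCCCTTTCccactctgtg
The Eif2ak2 match begins 19 bases into the transcript. The other 3 genes with the letters had glutamatergic log2 ratios of -0.10 for Eif2s1, 0.02 for Eif2s3x and -0.10 for Eif3a. A match is a description of the sequence and not evidence of binding.

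None of the 4E-binding protein genes, whose products block the cap complex until mTOR phosphorylates them, was counted as lower or higher. Eif4ebp2, the main form in brain, had 24.1 sham and 22.4 injury CPM in glutamatergic neurons, a log2 ratio of -0.10 (-0.19 to -0.02), and 0.06 (-0.15 to 0.27) in GABAergic neurons. Eif4ebp3 had -0.17 (-0.31 to -0.04) and -0.21 (-0.53 to 0.11). Eif4ebp1 was scarce, at 0.46 and 0.53 CPM in glutamatergic neurons, and its interval of -0.39 to 0.81 left a difference undetectable at this depth. Eif4enif1, the transporter of eIF4E into the nucleus and into processing bodies, had -0.06 (-0.13 to 0.00) and -0.14 (-0.29 to 0.02).

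Among the regulators of elongation, Eef2k, the kinase that halts eEF2, was close to 0. It had 30.9 sham and 30.8 injury CPM in glutamatergic neurons (log2 ratio -0.01, -0.08 to 0.07) and 53.9 and 50.8 in GABAergic neurons (-0.08, -0.22 to 0.05). The methyltransferase gene Eef2kmt was the other regulator counted as higher in glutamatergic neurons, from 212 and 274 UMIs, at 0.26 (-0.00 to 0.53), an interval that reaches 0. It was not counted under 6 alternatives, which gave values down to 0.21. Of the methyltransferases of eEF1A, Eef1akmt4 had -0.21 (-0.43 to 0.01) and Eef1akmt2 had -0.16 (-0.31 to -0.01) in glutamatergic neurons. In GABAergic neurons Eef1akmt2 had 0.20 (-0.12 to 0.53).

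The 2 neuron classes had 6 lower genes in common, which is 75.0% of the glutamatergic and 85.7% of the GABAergic ones: Eif5a, Eif4a2, Eif1, Eif4e, Eif3k and Eef1b2. Over the 15391 genes with enough UMIs in both classes, 897 were lower in both, which is 54.9% of the 1633 lower in glutamatergic and 45.5% of the 1970 lower in GABAergic neurons. Eif2ak2 was the 1 gene higher in both, out of 2 higher in glutamatergic (50%) and 5 in GABAergic neurons (20%). Over all genes 777 were higher in both, which is 51.5% and 30.4% of those higher in each class. Both classes came from the same 2 libraries, so they are not independent.

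Several of the lower genes are short. The gene bodies of Eif1, Eef1b2, Eif5a and Eif4a2 span 2.21, 3.66, 5.25 and 6.69 kb. Among all genes under 10 kb the glutamatergic median was -0.10 and 28.3% were lower, against 9.36% at 10 to 30 kb and 3.54% above 30 kb. Of the 19 translation factor genes under 10 kb, 6 were lower in glutamatergic neurons (31.6%), near that background, and 4 in GABAergic neurons (21.1%), against 27.7% of short genes. Eif4e differed in this respect: its gene spans 33.5 kb, and 0.977% of the 7063 glutamatergic genes above 30 kb with at least 200 UMIs had a lower ratio. For Eif5a and Eif4a2, 3.42% and 3.66% of the short genes with at least 200 UMIs had a lower ratio in glutamatergic neurons. For Eif1 and Eef1b2 it was 9.42% and 18.8%. In GABAergic neurons it was 2.87% for Eif5a, 8.13% for Eif4a2, 26.3% for Eif1 and 16.2% for Eef1b2. The part of gene length in these differences was not tested.

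**Figure D2:**
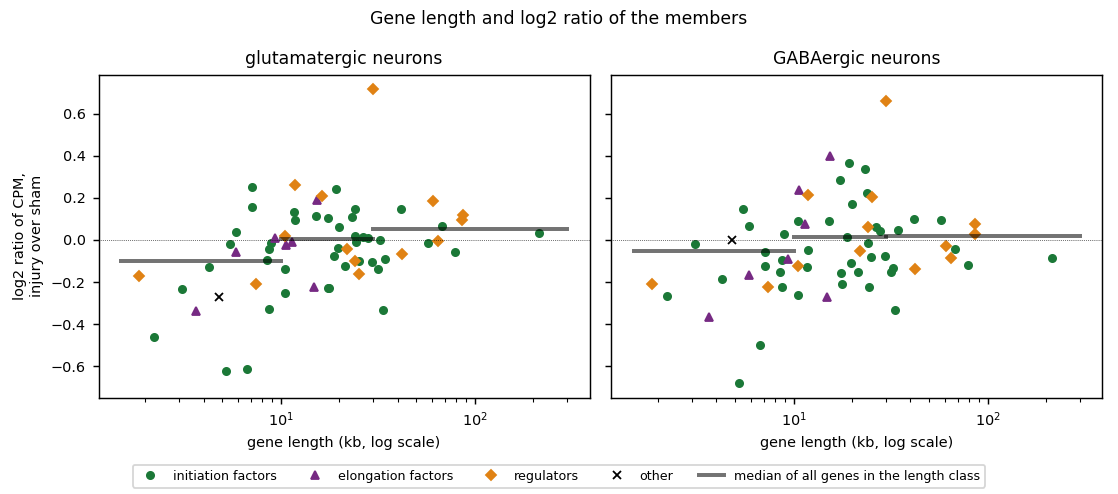
Log2 ratio of injury over sham against gene length (kb, log scale) for each translation factor gene, by role, in each neuron class, with grey bars at the median of all genes in 3 length classes. The lowest glutamatergic points, Eif5a and Eif4a2, lie under 10 kb, and Eif2ak2 and Eif4e lie just above 30 kb.

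The same comparison was made within each of 20 neuron clusters that had at least 50 nuclei in each library. The median of the elongation factors was below that of the initiation factors in 9 of 20 clusters, so neither group was regularly the lower one. Medians were below 0 in 15 clusters for initiation factors, in 11 for elongation factors and in 10 for regulators, beside 15 for all genes. They were below the median of all genes in the same cluster in 14, 12 and 9 clusters. The ribosomal protein genes were below both all genes and the initiation factors in 20 of 20 clusters, with medians from -0.87 to -0.13. The elongation factors were lower still in Glis3/Insrr (-0.27 against -0.13) and in Ebf2/Corin (-1.08, from 1 gene, against -0.87).

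**Figure D3:**
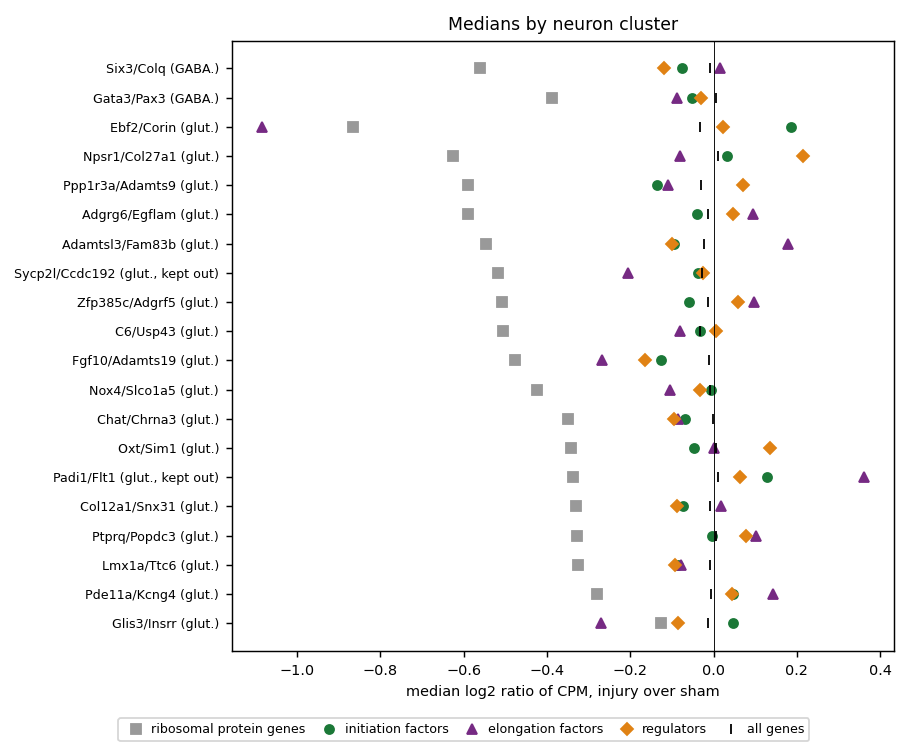
Median log2 ratio of injury over sham in each of 20 neuron clusters, named by 2 leading genes, for ribosomal protein genes, initiation factors, elongation factors, regulators and all genes. The ribosomal protein medians run from -0.87 to -0.13 and lie left of the initiation factors in every cluster. The factor groups mostly scatter around 0, but the elongation median lies left of the ribosomal one in Glis3/Insrr and in Ebf2/Corin (1 gene).

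Of 57 translation factor genes with at least 50 UMIs in 10 or more clusters, 3 were lower in the injury library in every such cluster, against 3.03% of all genes, and 1 was higher in every such cluster, against 1.06%. The 3 lower genes were Eif4a2 in 19 clusters, Eif5a in 16 and Eef1b2 in 13, and the higher one was Eif2ak2 in 11. Eif4a2 ranged from 36.1 sham and 18.7 injury CPM in the Ppp1r3a/Adamts9 cluster to 27.2 and 24.1 in Glis3/Insrr. Eif5a was lowest relative to sham in Adgrg6/Egflam, at 15.7 and 6.49, and nearly equal in Npsr1/Col27a1, at 11.2 and 11.0. In the Padi1/Flt1 cluster, with only 40 UMIs, Eif5a was higher, at 9.40 and 11.0. Eif1 and Eif4e were lower in 19 of 20 clusters each. The exceptions were Pde11a/Kcng4 for Eif1 (42.9 and 47.3) and Ebf2/Corin for Eif4e (47.5 and 56.0, from 13 and 45 UMIs). In Ebf2/Corin mitochondrial transcripts summed to 289 sham and 801 injury CPM, and their part in its values was not tested.

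Eif2ak2 varied widely among clusters. Its level was highest in the cluster led by Chat and Chrna3, at 20.3 CPM in the sham library and 21.4 in the injury library, a log2 ratio of 0.08 (-0.38 to 0.54). Pde11a/Kcng4 followed at 13.1 and 18.4 and Ptprq/Popdc3 at 7.76 and 11.7, while the median over clusters was 3.61 in the sham library and 6.31 in that of the injury. Chat/Chrna3, with the highest sham level, also showed the smallest difference among clusters with enough UMIs. The sham level is the denominator of the ratio, and a link between level and difference was not tested. The largest were in Six3/Colq (3.09 and 7.65, log2 ratio 1.31, 0.39 to 2.35) and Nox4/Slco1a5 (2.03 and 4.98, 1.30, 0.42 to 2.23). In the biggest glutamatergic cluster, Lmx1a/Ttc6, it had 3.55 and 6.65, a log2 ratio of 0.91 (0.40 to 1.43). The interval lay above 0 in 7 of 11 clusters. Below 50 UMIs, Glis3/Insrr and Adamtsl3/Fam83b went the other way, with 7 and 5 and with 13 and 11 UMIs.

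**Figure D4:**
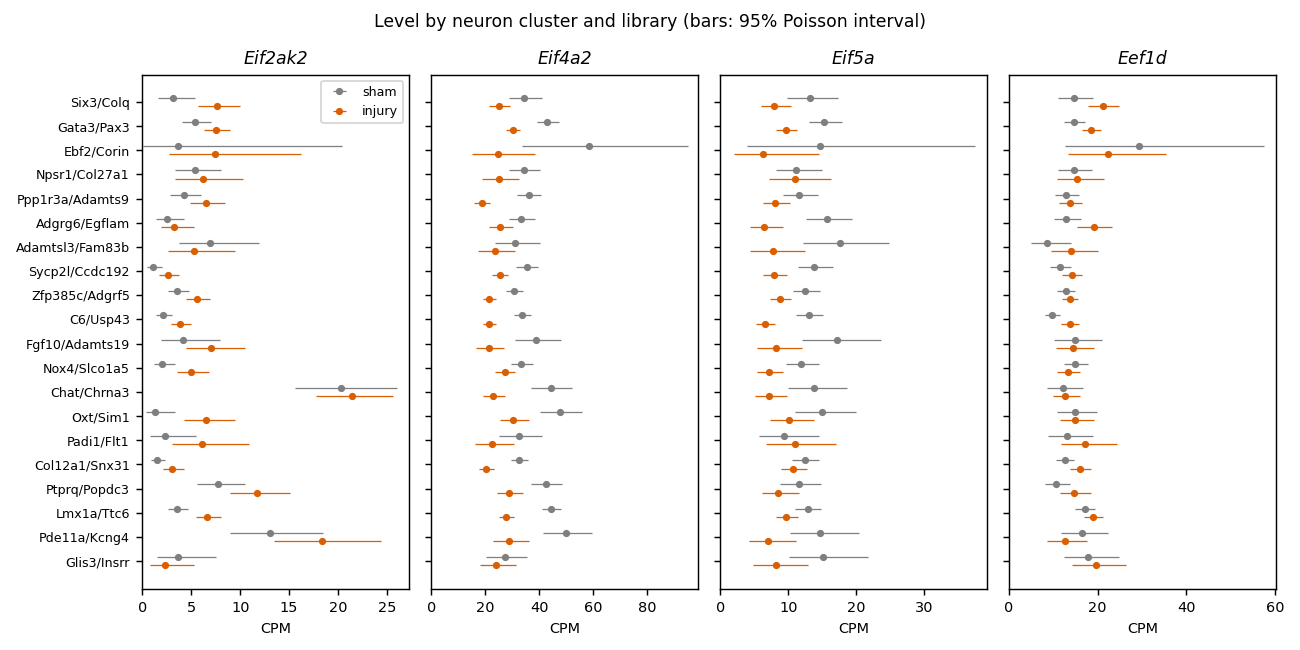
CPM of Eif2ak2, Eif4a2, Eif5a and Eef1d in each of 20 neuron clusters in the sham (grey) and injury (orange) library, with 95% Poisson intervals. Eif2ak2 is highest in Chat/Chrna3 in both libraries, at 20.3 and 21.4, and Eif4a2 lies lower in the injury library in every cluster.

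Eif2ak3 had no such common direction. In Gata3/Pax3, the larger GABAergic cluster, Eif2ak3 had 32.4 sham and 26.0 injury CPM, a log2 ratio of -0.32 (-0.52 to -0.11), whereas in Six3/Colq, the other GABAergic cluster, it had 43.8 and 56.0, a log2 ratio of 0.36 (0.09 to 0.63). The near-zero GABAergic class value of Eif2ak3 was therefore a sum over clusters that differed in sign. Glutamatergic clusters gave the highest values, with 61.3 and 94.4 in Npsr1/Col27a1 (0.62, 0.35 to 0.89) and 48.4 and 94.97 in Padi1/Flt1 (0.97, 0.61 to 1.34), one of the clusters kept out of the class sum. In that cluster mitochondrial transcripts summed to 152 sham and 348 injury CPM, and their part in its value was not tested. Eef1d was higher in 15 of 18 clusters with enough UMIs.

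Most translation factor genes were expressed evenly across neuron types. Over 49 genes with a mean of at least 50 UMIs per cluster in each library, the median SD of the log2 level across 20 clusters was 0.21, beside 0.32 over all 10068 genes with such counts, and 6 of the 49 exceeded the latter. Eef2k was the exception among them, with an SD of 0.71 in the sham library and 0.68 in that of the injury, and 20.2% of all genes had a larger one. Its level ran from 10.4 sham and 11.6 injury CPM in Zfp385c/Adgrf5 to 65.8 and 73.1 in Glis3/Insrr, and both libraries gave the same lowest and highest cluster. The next were Eif1a, with SDs of 0.37 and 0.42, Eif4e3 with 0.36 and 0.39, Eif2ak3 with 0.34 and 0.57, and Eef1a1 with 0.42 and 0.34. For Eif4e3 the levels ran from 23.1 and 25.2 in Zfp385c/Adgrf5 to 50.7 and 62.5 in Pde11a/Kcng4, leaving aside Ebf2/Corin with 6 and 20 UMIs.

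As a class sum the level of Eef2k was higher in GABAergic neurons, although single glutamatergic clusters, such as Lmx1a/Ttc6 with 58.7 sham and 52.6 injury CPM, lay above the GABAergic class level. The log2 ratio of GABAergic over glutamatergic neurons was 0.80 (0.69 to 0.92) in the sham library and 0.72 (0.63 to 0.82) in that of the injury. Eif2ak4 followed at 0.53 (0.44 to 0.61) and 0.48 (0.42 to 0.55), from 66.7 and 96.1 CPM in sham glutamatergic and GABAergic neurons. Of 57 translation factor genes with at least 200 UMIs in each class, 8 were higher in GABAergic neurons by 0.25 or more in both libraries, against 31.5% of all genes, and 0 were lower, against 9.74%. Besides Eef2k and Eif2ak4 these were Eef1b2, Eef1e1, Eif1a, Eif2b5, Eif3j1 and Eif3l. Both shares were below those of all genes.

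Because several paralogs moved apart, the balance within pairs was taken as the log2 ratio of their UMIs. The class changes restate the single-gene log2 ratios above, so they add no separate evidence. Eif4a1 over Eif4a2 stood at -0.62 in the sham library and -0.03 in that of the injury in glutamatergic neurons, a change of 0.60, and at -1.02 and -0.37 in GABAergic neurons, a change of 0.65. The change was upward in 19 of 20 clusters, the exception being Adamtsl3/Fam83b, with a change of -0.39. Eif4e over Eif4e3 changed by -0.48 and -0.43 in the 2 classes and downward in 19 of 20 clusters. These balances do not depend on the scaling of the libraries. By contrast, Eif4g1 over Eif4g3 changed by -0.05 and -0.14, and was up in 8 and down in 12 clusters. Eif5a over Eif5a2 changed by -0.40 and -0.52, Eif1 over Eif1b by -0.23 and -0.25, and Eef1a1 over Eef1a2 by -0.03 and 0.33. The changes carry no interval, and Eif5a2 had a mean of only 29.55 sham and 28.9 injury UMIs per cluster.

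**Figure D5:**
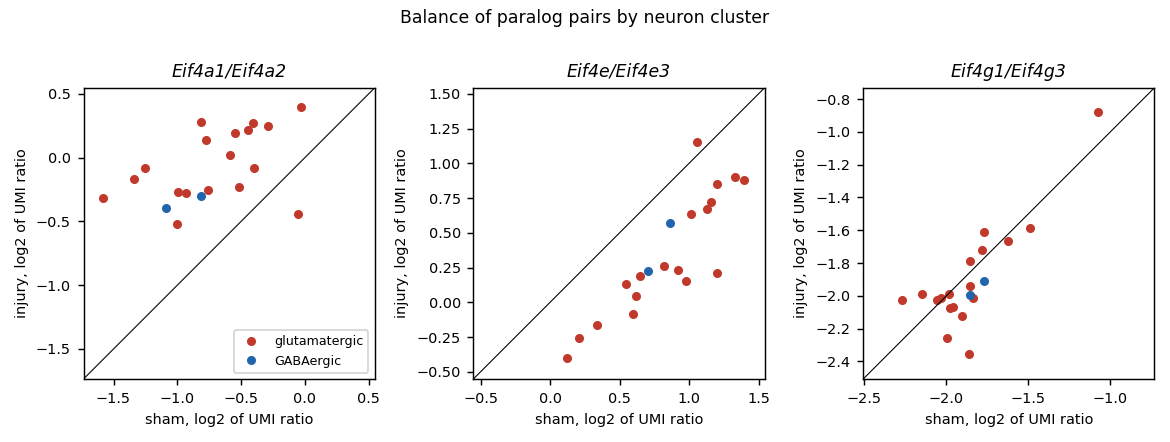
Log2 ratio of UMIs of Eif4a1 over Eif4a2, Eif4e over Eif4e3 and Eif4g1 over Eif4g3 in each neuron cluster, sham on the x axis and injury on the y axis, with the line of equality. Of the 20 clusters, 19 lie above the line for the first pair and 19 below it for the second, and the third pair has 8 above and 12 below.

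The genes around these factors were described from 3 further lists. The integrated stress response, which eIF2 phosphorylation sets off and which works through translation of ATF4, had a median of -0.00 over 15 glutamatergic genes, with 3 lower and 2 higher (12.3% and 14.8% of all genes), and of -0.14 over 13 GABAergic genes, with 4 lower and 0 higher (12.8% and 16.7% of all genes). The GABAergic median was -0.04 when at least 200 UMIs were required. Atf4 itself had 11.3 sham and 7.73 injury CPM in glutamatergic neurons, a log2 ratio of -0.54 (-0.68 to -0.41), and -0.37 (-0.67 to -0.08) in GABAergic neurons. Among its targets, Ddit3 (CHOP) had -0.22 in glutamatergic and -0.29 in GABAergic neurons, and only the latter value was counted as lower. Asns, the asparagine synthetase gene, had 0.15 and 0.13 and was counted as neither lower nor higher. Whether the targets moved apart as a group was not tested. Atf5, a related transcription factor gene, had -0.28 (-0.63 to 0.06) in glutamatergic neurons. The eIF2 phosphatase subunits differed in sign there, with -0.28 (-0.56 to -0.00) for the inducible Ppp1r15a and 0.16 (-0.06 to 0.37) for Ppp1r15b. Dnajc3, which encodes an inhibitor of PKR and PERK, had 0.05 (-0.10 to 0.20) in GABAergic neurons. Gcn1l1, a partner needed by GCN2, had 0.16 (0.10 to 0.22) in glutamatergic neurons. The transcript level of Atf4 was thus lower in the library in which Eif2ak2 was higher, but ATF4 is controlled mostly at translation, which these data do not measure.

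The mTOR and MNK genes, which control eIF4E and its binding proteins, had medians of 0.13 in glutamatergic and 0.08 in GABAergic neurons, with 2 of 14 lower in each class and 1 and 0 higher, against the same shares of all genes. Mknk2, a kinase that phosphorylates eIF4E, had 6.66 and 4.81 CPM in glutamatergic neurons, a log2 ratio of -0.47 (-0.64 to -0.30). Rps6kb2, an S6 kinase gene, had -0.41 (-0.46 to -0.35) and -0.33 (-0.46 to -0.21). Rptor, the scaffold of mTOR complex 1, had 133 and 162 in glutamatergic neurons, a log2 ratio of 0.29 (0.25 to 0.32), and 0.12 (0.05 to 0.19) in GABAergic neurons. Mknk1, the paralog of Mknk2, had 0.19 and 0.17. In GABAergic neurons the mTOR inhibitor genes Deptor and Tsc2 had 0.20 (0.02 to 0.37) and 0.18 (-0.03 to 0.39), and Akt1s1, another inhibitor, had -0.17 (-0.55 to 0.21).

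Among 22 other genes of initiation, recycling and termination, medians were 0.03 and 0.05, and 0 were lower in either class, against 12.3% and 12.8% of all genes. In GABAergic neurons 3 were higher, against 16.7% of all genes: Pabpc4, Gtpbp1 and Mcts2, the last at 0.29 (-0.22 to 0.82) from 48 and 98 UMIs and named after its value was seen. Pabpc4, a poly(A)-binding protein that joins the tail to eIF4G, was the 1 higher gene in glutamatergic neurons, with 35.2 sham and 53.1 injury CPM, a log2 ratio of 0.59 (0.53 to 0.65). In GABAergic neurons Pabpc4 had 39.8 and 68.4, a log2 ratio of 0.78 (0.64 to 0.92). The more widely known Pabpc1 had 0.07 (-0.00 to 0.13) and 0.12 (-0.04 to 0.29). Gtpbp1, a GTPase related to eEF1A, had 0.24 (0.13 to 0.35) and 0.39 (0.13 to 0.64). The lowest values were those of Ddx3x, an RNA helicase that aids scanning, at -0.19 in glutamatergic and -0.21 in GABAergic neurons, and of the recycling factor gene Abce1, at -0.22 in GABAergic neurons. Paip2, a repressor of poly(A)-binding protein, had -0.16 (-0.19 to -0.13) in glutamatergic neurons.

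Glia gave values outside neurons at lower depth. They came from the same 2 libraries, so they are not independent of the neurons. In oligodendrocytes (990 sham and 2304 injury nuclei) 6 of 6 elongation factors and 11 of 39 initiation factors were lower, against 25.3% of all genes, with medians of -0.36 and -0.14 beside -0.03 over all genes. Of 8 regulators 2 were lower there and 3 higher, against 19.5% of all genes higher. In astrocytes (209 and 511 nuclei) 9 of 22 initiation factors were lower and 2 higher, and of 3 elongation factors 1 was lower and 1 higher, against 26.4% of all genes lower and 25.8% higher. In oligodendrocytes Eef1b2 had 51 and 65 UMIs, for a log2 ratio of -0.97 (-1.52 to -0.42). Eif4a2 had -0.66 (-1.03 to -0.27) in oligodendrocytes and -0.75 (-1.34 to -0.14) in astrocytes. Mitochondrial transcripts moved with the library in these nuclei, with a median of 0.79 in oligodendrocytes and -0.52 in astrocytes, and their part in the values was not tested.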

How the data were processed

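The authors pooled equal numbers of nuclei per mouse, stained and sorted them, made droplet-based 3′ libraries and, per the labels, counted reads with Cell Ranger 6.0.2 against GRCm38 (bcl2fastq and Seurat 4.0 are also named). The deposited tables hold raw UMI counts without normalization. Whether intronic reads or strand were used in counting is not given in the sources used here. Nuclei with over 2% mitochondrial UMIs, under 200 genes or over 7500 genes were left out, as the study did. Libraries were integrated and clustered in Seurat 5.3.0 (R 4.3.3) with 1997 variable genes, from which the genes described had been left out, 30 components and a resolution of 0.5. Clusters with over 50% of doublets (called with scanpy 1.11.5) were set aside; other doublets were kept. Classes were named from marker genes and stand for cells like that class.

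UMIs were summed per class or cluster and library and scaled to 1000000 per class (CPM). Ratio intervals were exact (Clopper-Pearson) at 95%. Medians and counts used a prior of 0.5 UMI and genes with at least 50 UMIs. Gene lengths and positions came from GENCODE M21. With 1 library per group no test was made. The script was tested on simulated data. Genes named were, at 200 UMIs or more, the 3 with the largest rise and fall per role and class, the paralog pairs, all Eif2ak and Eif4ebp genes, the 5 with the largest spread over clusters, and the 2 highest and lowest of each further list. Others, such as those of the oligodendrocytes and astrocytes and several subunits, were chosen after their values were seen. The genes and lists were chosen with earlier results of these data known. Of the other settings tried, 3 were chosen after seeing the data. A further glial marker is not reported here.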

Additional observations from a re-analysis of the deposited data

Results flagged for a closer look

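Eif4g3, a scaffold gene of the cap-binding complex, was singled out because its log2 ratio of injury over sham was above 0 in glutamatergic neurons, at 0.035 (0.01 to 0.06), and below 0 in GABAergic neurons, at -0.084 (-0.14 to -0.03), with counting intervals that both leave out 0. The levels were 273 sham and 279 injury CPM in glutamatergic neurons and 290 and 273 in GABAergic neurons. Over the other settings tried, the log2 ratio ran from 0.02 to 0.05 and from -0.10 to -0.06. The counting intervals do not cover the choice of scaling. In glutamatergic neurons 58.1% of the 15773 genes with at least 200 UMIs had a lower ratio than Eif4g3. The gene spans 215 kb, and 47.5% of the 7063 such genes above 30 kb had a lower ratio. In GABAergic neurons 31.3% of 11746 genes, and 24.45% of the 6000 above 30 kb, had a lower ratio. Over single neuron clusters the log2 ratio was below 0 in 11 and above 0 in 9 of 20, with counting intervals below 0 in 3 and above 0 in 3 of them. The difference between the classes was not tested, and with 1 library per group it has no replicate check.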

How the results depend on the processing

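No paired analysis was possible because a single library stood for each condition and no result came from a test, and no replicate could be left out. Of the group medians and counts under the alternatives, 136 values were labelled the same as the main value and 3 as moved. With 1 library per group these labels carry no measure of spread. Settings that change only glutamatergic clusters, such as leaving out Chat/Chrna3 or Lmx1a/Ttc6, cannot move the GABAergic class values. Such values are in the count of 136. The number of translation factor genes higher in glutamatergic neurons changed from 2 to 1 under TMM factors, without integration and without the Lmx1a/Ttc6 cluster (the last chosen after seeing the data), Eef2kmt being a gene lost under each, and the cause was not tested. It was 3 at a resolution of 1.0, with clusters weighted equally and with the kept-out clusters Sycp2l/Ccdc192 and Padi1/Flt1 included. The GABAergic number ran from 4 to 6. The setting with kept-out clusters had 18 glutamatergic and 2 GABAergic clusters. It still left out Ano2/Myo5b, Neurod6/Ccbe1 and Dsp/Stra6, which came almost only from the injury library. The number of lower genes ran from 7 to 10 in glutamatergic and from 7 to 8 in GABAergic neurons. The median of the regulators, close to 0, changed sign between -0.02 and 0.03 in glutamatergic and between -0.04 and 0.01 in GABAergic neurons. The number of clusters with the elongation median below the initiation median ran from 7 to 12. The log2 ratio of Eif2ak2 ran from 0.59 to 0.73 in glutamatergic and from 0.63 to 0.87 in GABAergic neurons, that of Eif5a from -0.75 to -0.61 and from -0.69 to -0.62, and that of Eif4a2 from -0.64 to -0.60 and from -0.52 to -0.48. With each cluster weighted equally, Eif4b had 0.00, Eif5a2 -0.02, Eef1a1 -0.13, Eif1b -0.34, Eef1akmt4 -0.10, Eif6 0.08, Eif4ebp1 0.02, Asns 0.05, Atf5 -0.50, Ddit3 -0.34, Ppp1r15b 0.29, Gcn1l1 0.25 and Gtpbp1 0.15 in glutamatergic neurons, and Eif1ax -0.04, Eef1akmt2 0.01, Eif5a2 -0.04, Eif3m 0.16, Akt1s1 -0.06 and Ppp1r15b 0.27 in GABAergic neurons, and the cause was not tested. The stress response median in GABAergic neurons was -0.04 when at least 200 UMIs were required, which left fewer genes. Depth limits the values of single clusters.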
